A study of Mus musculus with 12 samples.

Results

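The cytochrome P450 (P450) genes of the mouse were followed in total RNA-seq of colon and whole blood from a mouse model of ulcerative colitis (UC). The members were the genes whose symbol in the normalized colon or blood table has the form Cyp, a family number, a subfamily letter and a gene number. Of 33944 genes in either table, 70 fitted this form, 67 in the colon table and 36 in the blood table. In the count table, 94 symbols had the form, and 24 of them were in neither normalized table. A mean normalized count of 10 or more was reached by 52 members in colon and 17 in blood. Another 15 members of the colon table stayed below 10, and Cyp17a1, Cyp2b9 and Cyp7a1 were not in it. Of the members above the limit, 15 reached it in both tissues, and Cyp2b10 and Cyp26c1 reached it in blood only. P450 genes with other kinds of symbol, such as Cyp51, were not members. Of these, Cyp51, Tbxas1 and Ptgis were tested in colon and 0 were called (edgeR, 0 at an unadjusted p under 0.05).

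P450 enzymes are heme proteins that insert oxygen into small lipophilic molecules. Families 1 to 3 mainly oxidize drugs, plant compounds and other foreign chemicals, and many of their genes are switched on by receptors that bind such chemicals, such as AhR, PXR (Nr1i2) and CAR (Nr1i3). Family 4 and the Cyp2j subfamily act mainly on fatty acids and eicosanoids, and other families make or break down bile acids, steroids, vitamin D and retinoic acid. The gut epithelium is a major site of P450 expression outside the liver, and the electrons for most of these enzymes come from the reductase Por.

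Each of the 4 groups held 3 libraries from male wild-type C57BL/6 mice that were 8 weeks old when obtained. The UC mice drank water with 1.5% dextran sulfate sodium (DSS), which injures the gut lining, for 7 days and were killed on day 8. The control mice drank water without DSS, and by the methods of the study the sequenced mice were picked by a disease activity index. Libraries are numbered as their titles are, 1, 2 and 4 for UC and 7, 8 and 9 for control in each tissue, and values of single libraries are given in that order. Total counts ran from 69181049 to 103662306 in colon and from 80867247 to 142536804 in blood, and reads are not independent molecules. DSS injury is an acute chemical model, and the study describes its colon samples as whole colon.

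The tissue is stated in conflicting ways in the labels of each sample, and the groups follow the field named tissue. Absorptive colonocyte genes followed that field, with a summed normalized count from 387150 to 1148572 in the colon libraries and from 663 to 1232 in the blood libraries (10 of 10 genes found, with Krt20 and Guca2a not in the blood table). The neutrophil genes did not follow the disease label in either tissue. The summed normalized count of 12 neutrophil genes in colon was 16429, 208 and 304 under the UC label and 8023, 386 and 45932 under the control label, with Camp, Stfa1 and Stfa2 at 0 in all colon libraries but control 9. In blood the sums were 485825, 55765 and 48902 against 156566, 40766 and 358711. High values thus stood in UC 1, control 7 and control 9 in both tissues. The deposited normalized tables list their library columns in the order 1, 7, 9, 2, 4, 8. Whether the disease labels were exchanged between libraries was not settled here, so every UC against control value below holds for the labels as deposited and would mean something else if they were. The libraries are therefore called "labelled UC" and "labelled control", and the members that the results turn on are given library by library.

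One gene held the largest part of the colon's P450 signal in 5 of 6 libraries. Levels were compared between genes as counts per kb of exon, expressed as a share of the sum over all members in a library. Cyp2c55, a mouse arachidonic acid monooxygenase, took 74.1%, 48.8% and 34.4% of that sum in UC 1, 2 and 4 and 76.9%, 35.8% and 18.1% in control 7, 8 and 9. It ranked first in every colon library but control 9, where Cyp2d34 took 26.0%. Averaged over the 6 libraries, Cyp2d34 came next with 13.0%, followed by Cyp2c68 with 5.77%, Cyp3a13 with 5.45%, Cyp2d10 with 3.91%, Cyp2c65 with 2.65%, Cyp27a1 with 2.36% and Cyp2s1 with 2.20%. The share of Cyp2c68 ran from 0.0693% to 11.3%, so these means do not rank the genes within a library. In blood the leading gene was another one. Cyp4f18, which inactivates leukotriene B4 in mouse neutrophils, took 66.7% to 77.5% of the blood's P450 sum, and Cyp27a1 came next with 3.67% to 8.53%, except in UC 1, where Cyp4f13 held 5.25%.

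**Figure D1:**
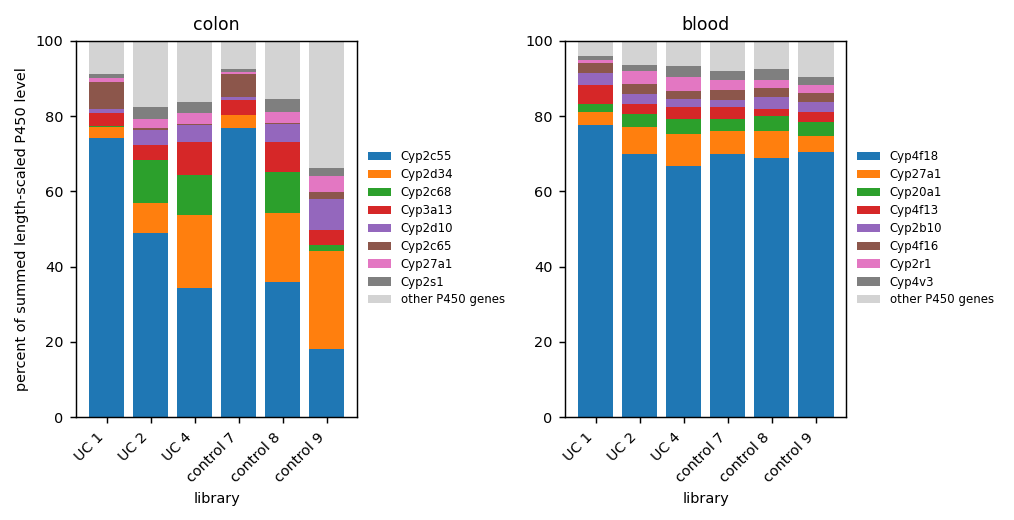
Share of each P450 gene in the summed length-scaled P450 level (percent, bars stacked from 0) in the 6 colon and 6 blood libraries, with the 8 genes of highest mean share in color and the rest in grey. Cyp2c55 runs from 18.1% to 76.9% among colon libraries, while Cyp4f18 stays between 66.7% and 77.5% in blood.

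Among the P450 genes of families 2 and 3 that are known mainly for foreign chemicals and arachidonic acid, 24 of 33 members reached a mean of 10 in colon. Cyp2c55 had the highest normalized count, 253992, 54132 and 57291 in the UC-labelled libraries and 243560, 56681 and 8415 in the control-labelled ones. The high values stood in UC 1 and control 7, one of each label, so the labelled groups overlapped. A predicted miRNA gene overlaps one of its exons on the other strand. Cyp3a13, the main intestinal form of the Cyp3a drug-metabolizing subfamily, had 16891, 6658 and 22249 under the UC label and 19262, 19077 and 2828 under the control label. The lowest value stood in control 9. The colonocyte sum was lowest there too (387150), but most of the 10 genes were lowest in another library. Car1 (60215 in control 9) and Slc37a2 (2232) were the 2 that were lowest there, and their part in the result was not tested. In bulk RNA, fewer cells of a type and less RNA per cell cannot be told apart.

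The Cyp2d genes, mouse relatives of the human drug-metabolizing CYP2D6, held 8 members in one stretch of chromosome 15 (GRCm38, chr15:82370527-82794294). Cyp2d34 had 14809, 12558 and 44641 in UC 1, 2 and 4 and 14758, 40426 and 16830 in control 7, 8 and 9, with UC 4 and control 8 highest. The same libraries were the 2 highest for Cyp2d12, with 609, 2211 and 8065 in the UC-labelled libraries and 358, 6620 and 649 in the control-labelled ones, a 22.5-fold range. Cyp2d10 gave 3500, 3732 and 6199 under the UC label and 1428, 6265 and 3200 under the control label. Cyp2d22 moved least in this stretch, from 1147 to 2516. Coding sequences of Cyp2d9, Cyp2d10, Cyp2d11, Cyp2d12 and Cyp2d34 were 88.8% to 94.7% identical in pairs, so counts of one may include reads of another. Cyp2d26, which was not in that set of near copies, had a different order. It had 1314, 638 and 602 in UC 1, 2 and 4 and 1248, 624 and 129 in control 7, 8 and 9. UC 1 and control 7 were thus highest and control 9 lowest. The least abundant member of the stretch was Cyp2d40, with a mean of 10.3.

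Other members of family 2 differed by library in other ways. Cyp2f2, known for naphthalene activation in the airway, had 113, 2052 and 1683 in the UC-labelled libraries and 17.7, 1548 and 157 in the control-labelled ones, a 116-fold range in which UC 2, UC 4 and control 8 were high. Its exons overlap an antisense gene, and the counting was not set to use strand. Cyp2e1, which oxidizes ethanol and other small molecules, had 1845, 177 and 140 under the UC label and 105, 159 and 342 under the control label, with UC 1 alone high. Cyp2b10, the classical CAR target of the liver, was counted in 1 colon library only, control 8, at 50.4. Cyp2w1, known from fetal gut and colon tumors, ran from 20.7 in control 9 to 290 in control 7. Cyp2c23, an arachidonic acid epoxygenase, had 15.2, 75.8 and 237 in UC 1, 2 and 4 and 0, 130 and 10.8 in control 7, 8 and 9, with UC 4 and control 8 highest.

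Of the Cyp3a genes other than Cyp3a13, the liver forms were counted in few libraries. Cyp3a44 was counted in UC 1 (574) and control 7 (124) and was at 0 in the other 4 libraries. Cyp3a25 followed the same 2 libraries, with 332 and 41.7. Cyp3a11, the main liver form, had a mean of 6.00 and did not reach the limit of 10. These 3 genes lie in one stretch of chromosome 5, and between 6.73% and 26.8% of their 50-base exon words recur in another gene. Some small-intestine genes were high in the same libraries. The summed normalized count of 8 such genes was 16036, 2615 and 3789 under the UC label and 23372, 3044 and 924 under the control label (8 of 8 found, 6 at a mean of 10 or more, Apoa4 and Defa24 at 0 in 4 libraries each). Among them, Sis, a brush border enzyme, was 1279, 18.3 and 11.5 against 346, 3.78 and 0. In UC 1 and control 7 most of the sum came from Fabp2, a fatty acid binding protein, with 12105, 557 and 710 in the UC-labelled libraries and 21076, 350 and 575 in the control-labelled ones. Alpi was also high in UC 1 and control 7, at 1881 and 1278. Rbp2, a retinol binding protein of the same list, was high in UC 2, UC 4 and control 8 instead, with 560, 1792 and 2859 under the UC label and 258, 2459 and 146 under the control label, and Lct, Apoa4 and Defa24 did not follow UC 1 and control 7. The part of these genes in the result was not tested.

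**Figure D2:**
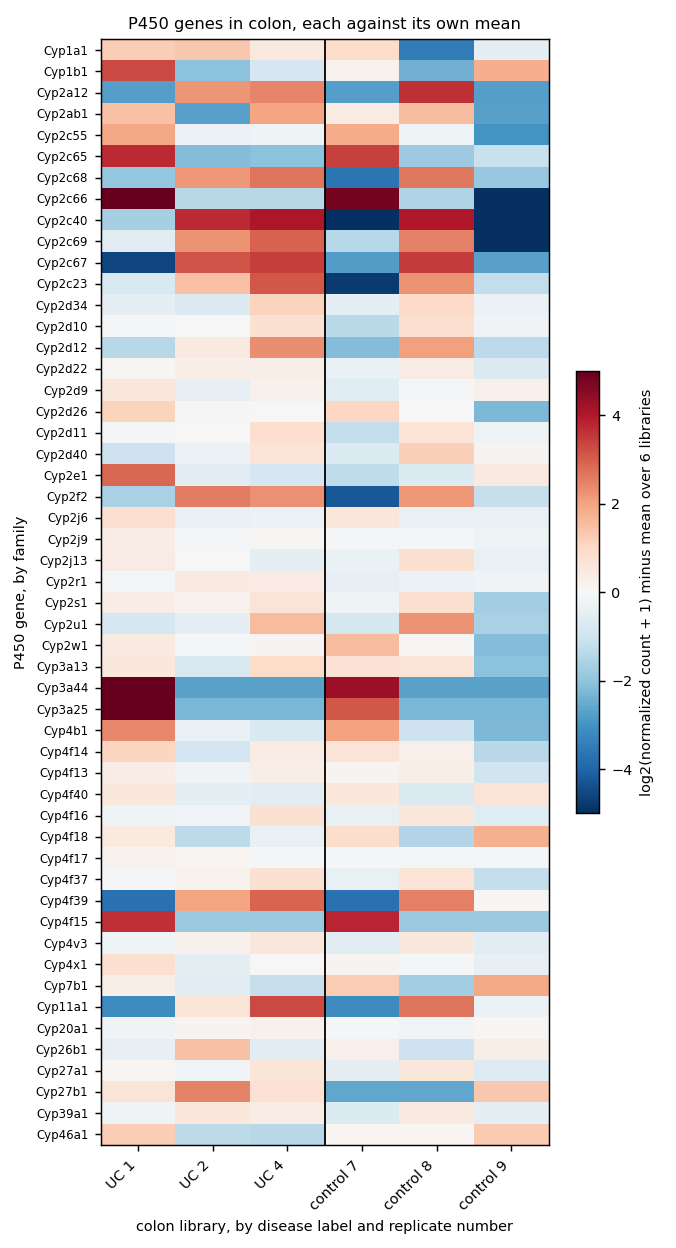
Normalized counts of the 52 P450 genes with a colon mean of 10 or more (rows, by family) in the 6 colon libraries (columns), as log2(count + 1) minus the gene's mean over the libraries, with the color scale stopped at 5 in each direction. Rows such as Cyp2c65 and Cyp3a44 are red in UC 1 and control 7, and rows such as Cyp2c68 and Cyp2f2 are red in UC 2, UC 4 and control 8.

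The strongest opposed patterns lay side by side on chromosome 19. Cyp2c55, Cyp2c65 and Cyp2c66 lie on the plus strand, at the start of a stretch from 39007019 to 39330713 that also holds Cyp2c29 (GRCm38, GENCODE). Cyp2c67, Cyp2c68, Cyp2c40 and Cyp2c69 lie on the minus strand between 39608842 and 39886799, and all are protein-coding members of the arachidonic acid and drug-oxidizing Cyp2c subfamily. Cyp2c65 had 23411, 394 and 421 in UC 1, 2 and 4 and 18693, 498 and 804 in control 7, 8 and 9. Cyp2c66 had 1499, 16.5 and 16.5 in the UC-labelled libraries and 1252, 15.1 and 0 in the control-labelled ones. Both genes were thus high in UC 1 and control 7 and low in the other 4 libraries.

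The minus-strand genes ran the other way, except in control 9, where both sets were low. Cyp2c68 had 635, 10818 and 15189 under the UC label and 190, 14879 and 654 under the control label. Cyp2c40 had 9.47, 442 and 539 in UC 1, 2 and 4 and 0, 529 and 0 in control 7, 8 and 9. Cyp2c69 had 36.9, 253 and 413 in the UC-labelled libraries and 19.0, 311 and 0 in the control-labelled ones, and Cyp2c67 had 0, 212 and 270 under the UC label and 2.53, 275 and 2.70 under the control label. In each of these 4 genes UC 2, UC 4 and control 8 were the 3 highest libraries, and the labelled groups overlapped.

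These near copies cannot be fully told apart by reads. The coding sequences within the minus-strand set were 96.5% to 98.1% identical, and 43.3% to 60.3% of their 50-base exon words recur in another gene. Summed over the 4 genes, so that reads exchanged among them do not matter, the count was 681, 11725 and 16410 in UC 1, 2 and 4 and 211, 15994 and 657 in control 7, 8 and 9, a 77.7-fold range. Cyp2c65 and Cyp2c66 were 96.3% identical, and their sum was 24911, 410 and 437 against 19945, 513 and 804. Between the sets identity was only 70.8% to 72.9%.

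The promoters of these genes are shown because the genes moved in 2 opposed sets. RefSeq listed a window from 250 bases before to 50 bases after the start for 56 of the 70 members (GRCm38.p6). In capitals are TATAAA, a spelling of the TATA box, and GTTAAT, a half-site of the HNF1 factors. Each was searched on both strands (ATTAAC is GTTAAT on the other strand).
Cyp2c55 (chr19:39006769-39007068, plus strand): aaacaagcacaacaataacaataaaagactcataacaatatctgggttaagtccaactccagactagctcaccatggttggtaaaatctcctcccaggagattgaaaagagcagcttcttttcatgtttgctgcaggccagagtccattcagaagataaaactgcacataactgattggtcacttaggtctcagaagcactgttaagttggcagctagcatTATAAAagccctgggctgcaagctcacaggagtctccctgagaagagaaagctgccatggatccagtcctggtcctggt
Cyp2c65 (chr19:39060756-39061055, plus strand): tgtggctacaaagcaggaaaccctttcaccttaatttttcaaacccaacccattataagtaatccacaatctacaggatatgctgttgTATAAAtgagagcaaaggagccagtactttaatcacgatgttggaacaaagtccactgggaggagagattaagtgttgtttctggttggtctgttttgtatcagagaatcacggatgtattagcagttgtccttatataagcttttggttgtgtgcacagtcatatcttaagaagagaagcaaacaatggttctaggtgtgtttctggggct
Cyp2c68 (chr19:39741052-39741351, minus strand): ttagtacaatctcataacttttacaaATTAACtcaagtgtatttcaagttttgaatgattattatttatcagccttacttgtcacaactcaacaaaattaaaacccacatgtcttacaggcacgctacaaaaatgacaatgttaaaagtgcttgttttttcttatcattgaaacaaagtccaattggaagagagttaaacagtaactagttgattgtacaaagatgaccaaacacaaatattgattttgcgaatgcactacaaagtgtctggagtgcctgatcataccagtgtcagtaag
Cyp2c40 (chr19:39812765-39813064, minus strand): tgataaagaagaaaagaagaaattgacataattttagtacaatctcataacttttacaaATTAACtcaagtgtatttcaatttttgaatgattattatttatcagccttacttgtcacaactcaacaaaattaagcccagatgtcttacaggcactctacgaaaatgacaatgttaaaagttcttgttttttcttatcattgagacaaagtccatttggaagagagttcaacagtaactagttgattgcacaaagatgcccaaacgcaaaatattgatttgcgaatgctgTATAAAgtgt

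TATAAA stood in 14.2% of all 27025 promoters and in 39.3% of the member promoters. Of the 7 Cyp2c genes it was absent only from the Cyp2c68 window. This exact spelling began 29 bases before the start in Cyp2c55, 162 before it in Cyp2c65, and at base 41 after it in Cyp2c40. Other spellings were not searched. The printed Cyp2c65 window also holds tatataa, which begins as far before the start as TATAAA does in Cyp2c55. These distances thus do not place the TATA box of each gene. GTTAAT stood in 7.20% of all promoters. In the 2 sets it was found in the windows of Cyp2c68, Cyp2c40 and Cyp2c69, and not in those of Cyp2c67, Cyp2c55, Cyp2c65 or Cyp2c66. The Cyp2c67 window begins past the stretch that holds the match in Cyp2c68, so whether Cyp2c67 has it further out was not seen. The AhR core GCGTG, found in 32.5% of all promoters, stood in the Cyp2c68 window only, and the nuclear receptor half-site AGGTCA, found in 16.0%, in none of the 7 (both strands searched). Aligned end to end, the windows were 68.3% to 92.3% identical in pairs within the minus-strand set and 52.3% to 57.3% between the sets. These are matches over the whole window, so windows offset from each other score lower, whereas the coding identities were over aligned bases. The lowest pair within the minus-strand set, Cyp2c67 and Cyp2c40, aligned over 220 bases only. In the plus-strand set Cyp2c65 and Cyp2c66 were 85.3% identical, whereas Cyp2c55 was 55.0% to 58.3% identical to them, about as far as between the sets. A match is only a run of letters, and no binding was measured.

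**Figure D3:**
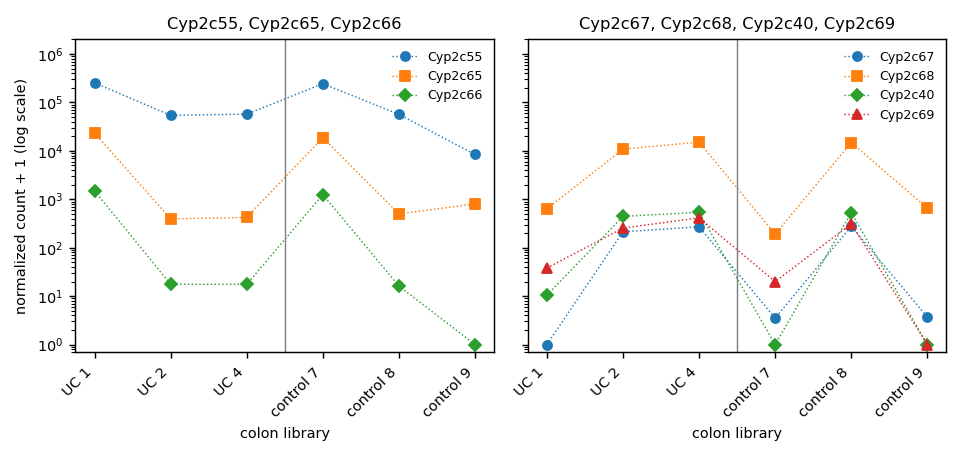
Normalized count + 1 (log axis) of 7 Cyp2c genes in the 6 colon libraries, plus-strand genes on the left and minus-strand genes on the right, with the grey line between labelled UC and labelled control. Cyp2c65 and Cyp2c66 peak in UC 1 and control 7, where Cyp2c68 has its lowest values.

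Genes that mark position along the gut moved with these sets, except that control 9 split them. The summed normalized count of 5 posterior Hox genes was 4018, 41435 and 45884 in UC 1, 2 and 4 and 5455, 47697 and 18490 in control 7, 8 and 9 (5 of 5 found, none at 0). Hoxb13, which marks the distal colon, was 2471, 28174 and 30118 against 2897, 30035 and 13692. In control 9 Hoxa13 was 3011, near the 3081 of UC 2, whereas Hoxd11 was 262 there, its lowest value. Smooth muscle genes, in contrast, summed to 213738, 496097 and 376779 against 337356, 328189 and 119076 (5 of 5 found). Macrophage and monocyte genes summed to 36105, 14307 and 19956 against 45802, 13692 and 52212 (8 of 8 found). Hepatocyte genes summed to 48106, 21672 and 21237 against 31718, 15906 and 21667, mostly from Apob and Trf, while Alb stayed at or below 72.3. Ttr of that list had 155, 2677 and 2712 in UC 1, 2 and 4 and 190, 2159 and 277 in control 7, 8 and 9, high in UC 2, UC 4 and control 8. Genes of the adrenal cortex and testis ran from 267 to 1156 in sum, and red cell genes from 642 to 4262. The part of these genes in the P450 patterns was not tested.

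Among the fatty acid P450 genes, 16 of 19 members reached a mean of 10 in colon. Cyp2j6, an arachidonic acid epoxygenase, had 7667, 3416 and 3562 in the UC-labelled libraries and 6532, 3412 and 3430 in the control-labelled ones, with UC 1 and control 7 highest in a 2.25-fold range. Cyp4f14, an omega-hydroxylase of leukotrienes and fatty acids, had 6168, 1518 and 3780 under the UC label and 4554, 3470 and 1107 under the control label. Cyp4b1, an omega-hydroxylase that also activates some plant toxins, showed the same 2 libraries high, with 2009, 293 and 225 in UC 1, 2 and 4 and 1518, 184 and 78.3 in control 7, 8 and 9. Cyp2u1, a long-chain fatty acid hydroxylase, was high in UC 4 and control 8 instead, with 166, 208 and 887 in the UC-labelled libraries and 161, 1384 and 94.5 in the control-labelled ones, and an antisense gene overlaps its exons.

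The Cyp4f genes on chromosome 17 (GRCm38, chr17:32452723-32947402) held 8 neighbours with different patterns. Cyp4f13 had 3858, 2670 and 3684 under the UC label and 3292, 3679 and 1511 under the control label. Cyp4f16 had 1947, 2087 and 3886 in UC 1, 2 and 4 and 1758, 3340 and 1493 in control 7, 8 and 9, and Cyp4f40 had 4060, 2105 and 1975 in the UC-labelled libraries and 4095, 1710 and 4460 in the control-labelled ones. For Cyp4f40 the low libraries were UC 2, UC 4 and control 8, whereas Cyp4f16 was highest in UC 4 and control 8. Cyp4f17 hardly moved, between 171 and 207. Cyp4f37 ran from 31.5 to 125 and Cyp4f39, an omega-hydroxylase of very long fatty acids in skin, from 0 to 96.5. Outside this stretch, Cyp4v3 had 1191, 1571 and 2033 under the UC label and 921, 1952 and 952 under the control label, with UC 4 and control 8 highest.

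Cyp4f18 lies apart, on chromosome 8, and its exons overlap Zfp961 on the other strand. In colon it had 343, 96.7 and 187 in UC 1, 2 and 4 and 448, 88.2 and 828 in control 7, 8 and 9. Control 9, control 7 and UC 1 were the 3 highest libraries, the same 3 in which the neutrophil sums were high, and the part of neutrophils in the result was not tested.

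The sterol and bile acid P450 genes gave 4 of 6 members in colon, and Cyp7a1, the rate-limiting enzyme of bile acid synthesis in liver, was not in the colon table. Cyp27a1, the mitochondrial sterol 27-hydroxylase, had 3578, 3054 and 5175 in the UC-labelled libraries and 2414, 5009 and 2151 in the control-labelled ones. Cyp39a1, an oxysterol 7-alpha-hydroxylase, had 784, 1259 and 1134 under the UC label and 537, 1206 and 618 under the control label. Cyp7b1, another oxysterol hydroxylase, had 238, 125 and 83.3 in UC 1, 2 and 4 and 451, 55.5 and 705 in control 7, 8 and 9, again with control 9, control 7 and UC 1 highest. Cyp46a1, the brain cholesterol 24-hydroxylase, stayed at or below 42.3.

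The AhR-linked genes differed from each other. Cyp2s1, an epithelial P450 outside the liver, was the most abundant of them, with 9769, 8483 and 11742 in the UC-labelled libraries and 6489, 12993 and 2254 in the control-labelled ones, and control 9 was the lowest library. A noncoding gene on the other strand overlaps it. Cyp1a1, the standard readout of AhR activity, was near the limit of detection, with 25.6, 27.9 and 14.8 under the UC label and 20.2, 0 and 7.20 under the control label. Cyp1b1, which is also found in stroma and myeloid cells, had 251, 5.23 and 13.2 in UC 1, 2 and 4 and 27.8, 3.78 and 89.1 in control 7, 8 and 9, a 66.4-fold range led by UC 1.

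Few genes of steroid, vitamin D and retinoid metabolism were detected in colon. Cyp11a1, which starts steroid synthesis from cholesterol and overlaps a noncoding gene on its strand, had 0, 13.1 and 85.8 in the UC-labelled libraries and 0, 55.5 and 6.30 in the control-labelled ones. Cyp2r1, the vitamin D 25-hydroxylase, had 176, 253 and 246 under the UC label and 139, 150 and 164 under the control label. Each library labelled UC was above each labelled control for Cyp2r1. Cyp27b1, which makes active vitamin D, had a mean of 10.8, and Cyp26b1, which clears retinoic acid, had 150, 550 and 139 in UC 1, 2 and 4 and 236, 97.1 and 246 in control 7, 8 and 9. The members nearest to the limit of 10 were Cyp2j13 (10.3), Cyp2d40 (10.3) and Cyp27b1 (10.8) above it and Cyp26c1 (9.97), Cyp2b10 (8.40) and Cyp3a11 (6.00) below it. In blood, Cyp4f17 (14.2), Cyp26c1 (34.1) and Cyp4b1 (35.0) were nearest above it and Cyp2c55 (5.52), Cyp2u1 (4.95) and Cyp17a1 (3.02) nearest below it.

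The colon libraries differed more in P450 genes than in other genes, as a description. The highest library divided by the lowest, with values under 1 set to 1, had a median of 9.80 over the 52 members and 2.23 over all 22123 colon genes with a mean of 10 or more. A 10-fold or larger range was seen in 26 of the 52 members, against 11.1% of all these genes. The gap held among abundant genes. With a mean of 100 or more the medians were 5.76 and 1.87, and with a mean of 1000 or more they were 3.08 and 1.66. The widest ranges were in Cyp2c66, Cyp3a44, Cyp2c40, Cyp2c69 and Cyp3a25, each of which was at 0 in at least 1 library. Cyp4f17, Cyp20a1 and Cyp2j9 were the steadiest, at 1.21, 1.33 and 1.53. In blood the median was 2.53 over 17 members and 2.24 over 16370 genes. Only Cyp26c1 passed 10-fold in blood, against 8.78% of blood genes.

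**Figure D4:**
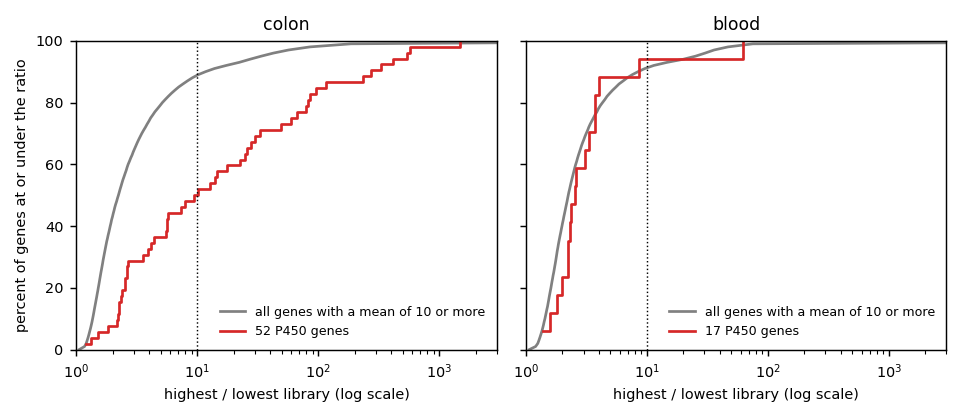
Percent of genes (vertical axis) at or under a given ratio of the highest to the lowest library (horizontal log axis), for P450 genes (red) and all genes with a mean of 10 or more (grey), in colon and blood. The red colon line lies to the right of the grey one, with medians of 9.80 and 2.23, and in blood the medians are 2.53 and 2.24.

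The range had a recurring shape in colon. UC 2, UC 4 and control 8 held the 3 highest values in 18 of 52 members and in 14.7% of all genes. UC 1, control 7 and control 9 held them in 6 members and in 18.3% of all genes. The 2 highest values stood in UC 4 and control 8 in 21 members (15% of genes) and in UC 1 and control 7 in 12 members (11.8% of genes). Control 9 was the lowest library in 16 members, against 20.1% of genes. In all these sets libraries of both labels stood together.

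The comparison of the libraries labelled UC with those labelled control, the question of the study, found no SDE P450 gene in colon with the labels as deposited. To be significantly differentially expressed (SDE), a gene needed an adjusted p no higher than 0.05 and a log2FC beyond 1 in either direction (edgeR quasi-likelihood test, Benjamini-Hochberg over all genes tested). Of 22238 colon genes, 1 was SDE (0.0045%), and of the 48 members tested, none was. At an unadjusted p under 0.05 there were 313 genes and no member, and DESeq2 gave 6 SDE genes, none of them a member. The other 4 members with a mean of 10 or more (Cyp27b1, Cyp3a25, Cyp3a44 and Cyp4f15) did not pass edgeR's filter on low counts. That filter keeps genes through the group where they are high, so a count over the tested members is not one over all members. The member log2FC ran from -1.44 to 1.83 with a median of 0.30, against -0.0069 for all genes.

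The members furthest from 0 had wide errors. Cyp2e1 had a log2FC of 1.83 ± 1.08 (SE), which rested on UC 1, since it was -0.35 ± 0.57 without that mouse. Cyp1b1 went from 1.14 ± 1.56 to -2.12 ± 1.29 in the same way. Cyp1a1 had 1.298 ± 1.08, Cyp7b1 had -1.44 ± 0.87 and Cyp4f18 had -1.13 ± 0.82. For the abundant genes the values were 0.22 ± 1.16 for Cyp2c55, 0.13 ± 0.75 for Cyp3a13, -0.023 ± 0.61 for Cyp2d34 and 0.44 ± 0.58 for Cyp2s1. The lowest unadjusted p among members was that of Cyp2r1, with a log2FC of 0.56 ± 0.29, and it was the only member below 0.05 unadjusted with DESeq2. Of the 48 tested members, 1 (Cyp2r1) had labelled groups that did not overlap, against 5.66% of all tested genes.

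Several values depended on 1 library. Cyp2c55 lay at -0.91 without UC 1 and at 1.88 without control 7, and Cyp1a1 at 2.56 without control 7. Cyp7b1 fell to -0.80 ± 0.93 and Cyp4f18 to -0.39 ± 0.84 without control 9. Without control 8, 14 of 52 members had an unadjusted p under 0.05, against 8.40% of the genes, and still none was SDE (lowest adjusted p = 0.54, edgeR). Among them, Cyp2c68 had a log2FC of 4.40 ± 1.46 against 0.73 ± 1.65 with all libraries, and Cyp2f2 had 3.87 ± 1.52 against 1.13 ± 1.54. Without control 8, Cyp7b1 had -1.96 ± 0.51 and Cyp4f18 -1.61 ± 0.58. Leaving out any one of the other mice gave at most 1 member at that level, and no member was SDE.

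**Figure D5:**
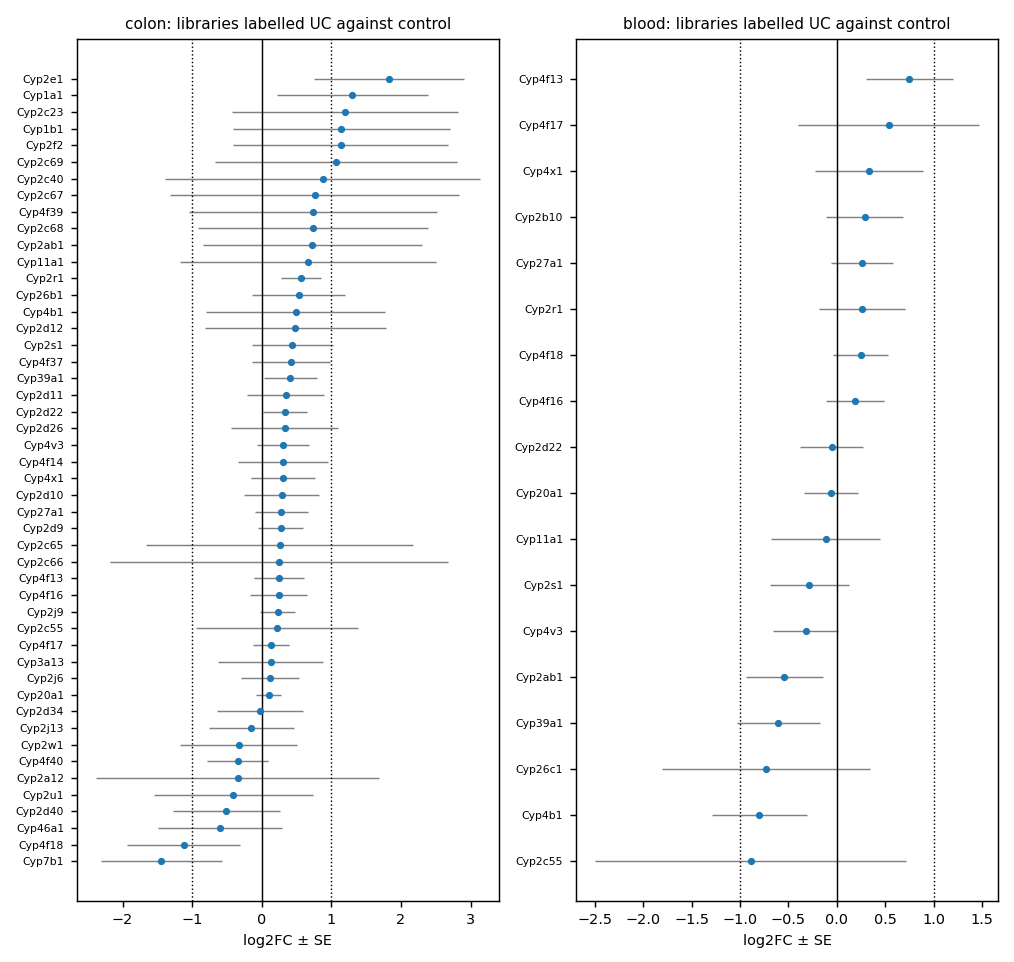
Log2FC ± SE (horizontal axis, edgeR) of the libraries labelled UC against those labelled control for the P450 genes tested in colon (48) and blood (18), sorted by value, with dotted lines at a log2FC of 1 in each direction. No member was SDE, and Cyp2e1 at 1.83 and Cyp7b1 at -1.44 are the ends of the colon range.

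Genes that serve or control the P450 enzymes were not SDE either. The 12 partner genes (electron donors, heme synthesis and breakdown, epoxide hydrolases) were all tested in colon, and 0 were called by edgeR or DESeq2, with 0 at an unadjusted p under 0.05 in edgeR and 1 in DESeq2. Por had 14440, 5426 and 7878 in the UC-labelled libraries and 12108, 10472 and 6657 in the control-labelled ones. Hmox1, which breaks down heme, had 1046, 166 and 318 under the UC label and 1161, 382 and 1571 under the control label, with the same 3 libraries high as for Cyp4f18. Of 19 regulators tested, 0 were called by either tool, and Cebpb, an inflammatory transcription factor, was the only one at an unadjusted p under 0.05, with a log2FC of -1.61 ± 0.59.

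The regulators nevertheless differed between libraries. Nr1i3, which encodes CAR, had 5.68, 307 and 756 in UC 1, 2 and 4 and 63.2, 872 and 58.5 in control 7, 8 and 9, a pattern in which UC 2, UC 4 and control 8 were highest as for the minus-strand Cyp2c genes. Ppara, a fatty acid receptor that controls many Cyp4 genes in liver, had 2582, 703 and 665 in the UC-labelled libraries and 1306, 682 and 178 in the control-labelled ones, with UC 1 and control 7 highest. Ahr was steady, between 2034 and 2664. Hnf4a, a master regulator of gut epithelium, lay between 33612 and 73359, with control 9 lowest. These are side-by-side values over 6 libraries, and a link to any P450 gene was not tested.

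In blood, 17 members had a mean of 10 or more, and the counts were low apart from Cyp4f18. Cyp4f18 had 5219, 2622 and 3275 under the UC label and 3405, 2898 and 3035 under the control label, with UC 1 highest. The neutrophil sum was 485825 in UC 1 and 358711 in control 9, and its part in the result was not tested. Cyp4f13 had 847, 253 and 375 in UC 1, 2 and 4 and 381, 211 and 280 in control 7, 8 and 9, and UC 1 was again the highest. Cyp27a1 had 290, 315 and 491 in the UC-labelled libraries and 352, 346 and 213 in the control-labelled ones. Cyp4v3, a fatty acid hydroxylase whose exons overlap another gene on the same strand, ran from 120 to 271, Cyp4f16 from 157 to 283, and Cyp20a1, an enzyme with no known substrate, from 157 to 247.

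Cyp2b10 was better counted in blood than in colon, with 237, 110 and 110 under the UC label and 90.4, 151 and 132 under the control label. Cyp2r1 ran from 63.2 to 210 and did not separate the labelled groups in blood. Cyp26c1, a retinoic acid hydroxylase, had 62.1, 0 and 14.7 in UC 1, 2 and 4 and 57.4, 29.9 and 40.5 in control 7, 8 and 9, and Cyp11a1 had 26.3, 28.6 and 81.8 in the UC-labelled libraries and 45.9, 67.8 and 35.6 in the control-labelled ones.

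In edgeR no blood gene was SDE under the disease label. Of 16759 genes tested, 0 were called (0%) by edgeR, with 241 at an unadjusted p under 0.05 and 6 SDE by DESeq2. Of the 18 members tested, which included Cyp2c55 below the mean of 10, 0 were called by either tool and 0 had an unadjusted p under 0.05. No member's labelled groups were free of overlap, against 6.5% of the genes. Cyp4f18 had a log2FC of 0.25 ± 0.28 and Cyp4f13 of 0.75 ± 0.45, which was 0.12 ± 0.31 without UC 1. Cyp4b1 lay at -0.80 ± 0.49 and Cyp2ab1 at -0.54 ± 0.40. The blood partners (11 tested) and regulators (10 tested) also had 0 calls and 0 genes at an unadjusted p under 0.05 with either tool.

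The label effect was compared directly between colon and blood in one fit of all 12 libraries. Of 23258 genes, 1 passed an adjusted p of 0.05 (0.0043%), and of 50 members, none did. The only member at an unadjusted p under 0.05 was Cyp2b10 (edgeR, adjusted p = 1.00), whose colon value rests on control 8 alone. With the mouse as a block, 0 genes passed and 0 members had an unadjusted p under 0.05.

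Colon and blood themselves differed in 48 of the 50 members tested. In a comparison across tissues that does not rest on the disease label, 41 of 50 tested members were higher in colon (37.7% of all 23258 genes) and 7 were higher in blood (20.8% of genes). The median log2FC of the members was 6.32, against 0.46 for all genes. Of the 50, 21 had no count in any blood library and passed the filter on low counts through colon alone. A count over the tested members is thus not one over all members. For genes with no blood count a fitted fold change is no bound. With such genes set at 3 counts per blood library, the member median was 4.16 and that of all genes 0.39. With library size only in place of TMM, the median of all genes moved to 2.57 and the share of called genes higher in colon from 64.4% to 91.1%, and the split of members was 43 higher in colon and 3 (Cyp4f18, Cyp2b10 and Cyp2ab1) higher in blood. RNA of the tissues was extracted and depleted with different kits, so tissue and kit cannot be told apart.

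The leading colon genes were at or near 0 in blood. Against 3 counts per blood library, the mean colon level of Cyp2c65 was at least 748-fold higher and that of Cyp2c68 at least 704-fold. For the mean of Cyp2j6 it was at least 470-fold and for that of Cyp2d10 at least 406-fold. At the other end, the bound was only 1.04-fold for Cyp2d40 (62 colon counts) and Cyp2j13 (61), which were both called higher in colon. These bounds do not hold library by library. The normalized count of Cyp2c65 was 23411 in UC 1 and 394 in UC 2, and that of Cyp2c68 was 15189 in UC 4 and 190 in control 7. Cyp3a13 had 85961 counts over the colon libraries and 3 over the blood libraries. Cyp2c55 had 646696 counts against 38, a log2FC of 12.61 ± 1.36.

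The genes higher in blood were few and mixed in role. Cyp4f18 was higher in blood with a log2FC of -5.17 ± 0.54, and Cyp2b10 with -7.99 ± 1.33. Cyp2ab1 had -4.90 ± 0.90 and Cyp26c1 -3.59 ± 0.81, although the call of Cyp26c1 was lost with library size only (log2FC of -1.45). Cyp11a1 had -2.58 ± 1.06 at an adjusted p of 0.048 (edgeR), and leaving out UC 1, UC 2, control 7 or control 9 in both tissues raised it to between 0.052 and 0.12. Cyp4x1, whose exons overlap an antisense gene, had -1.15 ± 0.39. Cyp2r1 had -1.19 ± 0.29, but with library size only its direction turned, to 0.90. By role, 20 of 23 tested genes of families 2 and 3 were higher in colon and 2 in blood, and of 15 fatty acid genes 12 were higher in colon and 2 in blood. Over all 23258 genes, 37.7% were higher in colon and 20.8% in blood. Members with no blood count passed the filter on low counts through colon alone, so these counts do not stand for whole roles. All 4 tested genes of sterol and bile acid metabolism and all 3 AhR-linked genes were higher in colon, although the calls of Cyp1a1 and Cyp1b1 were lost without UC 1 or without control 7, and that of Cyp1a1 also without UC 2, without control 9 or with the mouse as a block (edgeR, adjusted p = 0.051). Of the partners, Por was higher in colon by a log2FC of 2.33 ± 0.49, and Cyb5a was higher in blood (-1.68 ± 0.13).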

How the data were processed

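Total RNA of colon and whole blood from the same 6 mice was sequenced. Colon RNA was depleted with Ribo-Zero and blood RNA with Globin-Zero, after different extraction kits. The authors trimmed the reads with Flexbar, removed ribosomal reads, aligned them to GRCm38 with STAR and ran StringTie 1.3.4c with Ensembl 92 and default options. The deposited gene counts are whole numbers that the authors derived from StringTie coverage. The deposited normalized values, a signal per gene, are these counts divided by 1 factor per library (DESeq2), made separately for each tissue, so they are compared within a tissue only.

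Counts were tested here with edgeR 4.0.16 (R 4.3.3; TMM normalization, filterByExpr, quasi-likelihood test, Benjamini-Hochberg adjustment over all genes tested). Each tissue was fitted alone. The interaction and the tissue contrast used all 12 libraries in 4 groups. DESeq2 1.42.0, other scalings and filters, a fit with the mouse as block and the omission of each mouse were alternatives, and the scripts were tested on simulated data. Members and gene lists were chosen with earlier results of these data known. Named genes were those with the highest means, the widest ranges, the largest tissue differences or a fixed role (AhR, sterol, steroid, vitamin D, retinoid), any member at an unadjusted p under 0.05, and all Cyp2c neighbours. Other names were chosen after their values were seen.

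The study's methods describe blood and colon from the same mice. Same-numbered colon and blood libraries were taken as one mouse by their titles. Deviations of same-numbered libraries from the labelled group means correlated at r = 0.087 to 0.271 over genes, above 0.1 in 3 of 6 pairs. No values for unmatched pairs are given, so these do not test the pairing. Gene positions were taken from GENCODE release 21 for mouse, which held 53620 of 53801 gene identifiers. Total counts bound the precision of each value, and P450 counts of a few reads are uncertain. Counting did not use strand, and reads of near-identical P450 genes may be split between them.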

Additional observations from a re-analysis of the deposited data

Results flagged for a closer look

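One result outside the P450 genes was singled out because the label effect differed between tissues. The noncoding gene Gm26712 had a log2 difference of 7.257 between the colon and blood label effects (edgeR interaction, adjusted p = 0.000281), and this rose to 0.08 once mouse number entered as a replicate block. Its counts in colon were 482, 650 and 712 in UC 1, 2 and 4 and 3, 3 and 3 in control 7, 8 and 9. In blood they were 319, 110 and 301 against 294, 246 and 322. The gene was named after its values were seen, and no cause was tested.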

How the results depend on the processing

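No P450 gene was SDE in colon or blood under any alternative run. For all genes, the 1 SDE gene of the colon became 6 with DESeq2 and 0 to 0 when each mouse was left out in turn. The 0 of the blood became 6 with DESeq2, 1 with library size only and 0 to 3 without each mouse. The 1 interaction gene became 19 with DESeq2, 0 with the replicate block and 1 to 2 without each mouse, and the cause was not tested. The 48 members called between tissues became 46 with DESeq2, 44 with the replicate block and 43 to 45 without each mouse. With library size only, 91.1% of the called genes were higher in colon, against 64.4%, and 93.5% of the called members, against 85.4%. Cyp2r1 turned to a log2FC of 0.90 there, since that scaling moved the median of all genes from 0.46 to 2.57. With the replicate block the tissue calls of Cyp1a1, Cyp2d40, Cyp2j13 and Cyp4b1 were lost among the named members. A minimum mean of 5 gave 55 colon and 18 blood members, and one of 50 gave 42 and 12. With CPM scaled by TMM, the counts of members by highest libraries were 18, 5, 20 and 12 in place of 18, 6, 21 and 12. In 9 named values DESeq2 gave no adjusted p.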
